A study of Mus musculus with 18 samples.

Results

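The genes described here are the 10 mouse MHC class II genes H2-Aa, H2-Ab1, H2-Eb1, Cd74, H2-DMa, H2-DMb1, H2-DMb2, H2-Oa, H2-Ob and Ciita. They were taken by name from every expression table of a series on mouse gliomas, and all 10 were found in each of the 3 bulk tables, in the 10x table and in the Drop-seq table. Together they are 10 of 36706 gene names in the bulk tables. The series compares gliomas with different genetic drivers and asks how their macrophages and microglia respond to PLX3397, an oral inhibitor of CSF1R, a receptor on which these cells depend for survival.

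All mice and lines carried the strain label Boy/J. Whole Ras tumours, driven by HRasV12 with a dominant negative p53, came from mice given vehicle (n = 4) or PLX3397 (n = 4) by daily gavage at 100 mg/kg from day 7 after implantation until the mice were moribund; the treatment label of these vehicle libraries reads untreated. CD11b-positive cells were selected with microbeads from PDGFB tumours after 3 days of vehicle (n = 1) or PLX3397 (n = 2) at the same dose from day 14. Untreated lines were grown in serum-free medium from Ras tumours (n = 2, with EGF and FGF) and PDGF tumours (n = 3, with EGF, FGF and PDGF proteins), so driver and medium cannot be told apart. A 10x and a Drop-seq library each came from an untreated Ras tumour. Tumours were implanted, so the host mouse supplied the vessels and immune cells. The labels give neither age nor sex. They do not spell out whether lines or libraries of a group come from separate animals, so p-values measure the spread between these libraries, which may be partly technical.

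MHC class II molecules present peptides from endocytosed proteins to CD4 T cells. They are built from an alpha and a beta chain, assembled around the invariant chain, and loaded with peptide in endosomes with the help of the DM proteins. Expression is typical of B cells, dendritic cells and activated macrophages; in the healthy brain it is low, and microglia and incoming monocytes raise it in inflammation, largely under interferon gamma. Ciita is the master coactivator of these genes. It binds no DNA itself but docks on a complex of RFX, CREB and NF-Y proteins that sits on the X and Y boxes of their promoters.

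Of the 10 genes, 8 lie close together in the class II region on chromosome 17 of GRCm38, while Cd74 and Ciita (chromosome 16, 10480059 to 10528418, plus strand) lie on other chromosomes. H2-Oa occupies 34092340 to 34095234, H2-DMa 34119541 to 34139101, H2-DMb2 34143307 to 34151555, H2-DMb1 34153072 to 34160230, H2-Ob 34238903 to 34254414, H2-Ab1 34257689 to 34269419 and H2-Eb1 34305867 to 34316674, all on the plus strand, and H2-Aa 34282744 to 34287823 on the minus strand. Some overlap other annotated genes: H2-DMa overlaps Brd2 by 3094 bases, Ciita overlaps Dexi by 25888 bases and H2-Oa lies inside the antisense gene BC051537, all 3 on the opposite strand. Whether the bulk reads were counted by strand is not given in the sources used here, so reads of such pairs cannot be told apart in the bulk tables.

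RefSeq promoters (250 bases before to 50 after a start, GRCm38.p6) were at hand for 7 of the 10 genes. They were searched on both strands for the Y box letters ATTGG, a reversed CCAAT bound by NF-Y, and for the X box letters AGNAAC. All 7 held ATTGG in at least 1 promoter, against 37.4% of 32851 promoters. On the gene strand, AGNAAC followed by ATTGG with 10 to 45 bases between them occurred in 4 of the 7. These were H2-Oa, H2-DMb1, H2-Ob and H2-Eb1, with 25 to 28 bases between. Of all promoters, 0.907% held the pair on the gene strand and 1.87% on either strand. The 7 were counted as genes and the rest as single promoters. The spacing of 10 to 45 bases was chosen after the sequences had been seen. The stretches below end at the ATTGG, run 5′ to 3′ along the gene and are shown because they let the promoters of 5 genes compared below be read side by side; capitals mark AGNAAC and ATTGG.
H2-Eb1 (chr17:34305763-34305812, plus strand): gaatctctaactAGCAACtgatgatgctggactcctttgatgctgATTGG
H2-Ob (chr17:34238803-34238852, plus strand): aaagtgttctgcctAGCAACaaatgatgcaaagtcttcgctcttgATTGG
H2-Oa (chr17:34092291-34092340, plus strand): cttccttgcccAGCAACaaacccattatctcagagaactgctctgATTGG
H2-DMb2 (chr17:34145114-34145163, plus strand): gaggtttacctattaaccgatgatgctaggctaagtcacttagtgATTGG
H2-Aa (chr17:34287867-34287916, minus strand): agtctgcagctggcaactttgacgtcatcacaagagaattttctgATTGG
Distances are counted from the RefSeq starts, which can differ from the gene positions given above. The ATTGG began 43 bases before that start in H2-Oa, 48 in H2-Aa, 57 in H2-Ob, 59 in H2-Eb1 and 90 in H2-DMb2. The H2-DMb2 stretch lies inside the gene span given above, and the H2-Oa stretch ends at the first base of its span. A match describes letters and not a bound site.

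Whole Ras tumours were compared first. In these bulk samples, fewer cells of a type and less RNA per cell cannot be told apart. All 10 class II genes had lower mean levels in CPM, reads scaled to a library of 1e6 reads, in the PLX3397 tumours than in the vehicle tumours, with a median log2 fold of -2.56 over the 10 genes, against 0.0015 over all 18366 genes tested. None of the 10 was called at an adjusted p under 0.05 by edgeR's quasi-likelihood test, which called 0% of all genes. At an unadjusted p under 0.05, 9 of the 10 were lower, against 3.11% of all genes tested; 0 of the 10 were higher, against 0.414%. In 6 of the 10 (H2-Aa, H2-Ab1, H2-Eb1, Cd74, H2-DMb2 and H2-Ob) every PLX3397 library lay below every vehicle library, which held for 2.13% of all genes, and in none was the order the other way, against 0.457%.

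H2-Aa and H2-Ab1 encode the classical chains that pair as I-A to display the peptide. H2-Eb1 encodes the beta chain of I-E, whose alpha chain gene H2-Ea is not among the 10 genes. The names H2-Ea, H2-Ea-ps and H2-Eb2 together summed to at most 0.305 CPM in any Ras tumour library and passed no filter. Transcripts of H2-Eb1 therefore do not show that I-E was made. H2-Aa, the I-A alpha chain, stood at 227, 69.1, 206 and 219 CPM in vehicle replicates 1 to 4 and at 53.3, 19.9, 8.59 and 28.3 CPM in PLX3397 replicates 1 to 4. Vehicle replicate 2 lay well below the other vehicle libraries and was still above every PLX3397 library. The log2 fold of H2-Aa was -2.70 (SE 0.60, edgeR adjusted p = 0.443). H2-Ab1, the I-A beta chain, stood at 239, 65.4, 206 and 240.2 CPM under vehicle and at 58.7, 21.8, 9.19 and 27.0 CPM under PLX3397, a log2 fold of -2.67 (SE 0.62, edgeR adjusted p = 0.485). H2-Eb1, the I-E beta chain, stood at 154, 48.7, 143 and 163 CPM under vehicle and at 32.4, 12.1, 4.45 and 13.2 CPM under PLX3397. Its log2 fold of -3.02 (SE 0.64, edgeR adjusted p = 0.426) was the lowest of the 10 genes. As for H2-Aa, vehicle replicate 2 was the lowest vehicle library and PLX3397 replicate 1 the highest PLX3397 library for both beta chains.

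Cd74, the invariant chain that blocks the peptide groove until the endosome is reached, lies on chromosome 18 (60803848 to 60812652, plus strand) and had the highest level of the 10 genes per length of exon. It stood at 609, 233, 531 and 606 CPM under vehicle and at 175, 60.7, 24.5 and 71.0 CPM under PLX3397 (log2 fold -2.56, SE 0.60, edgeR adjusted p = 0.485). The lowest vehicle library, again replicate 2, remained above the highest PLX3397 library, replicate 1.

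The DM chains form the editor that exchanges the invariant chain fragment for peptide. H2-DMa, the DM alpha chain, stood at 71.9, 26.4, 41.9 and 42.2 CPM under vehicle and at 28.0, 12.3, 5.57 and 9.87 CPM under PLX3397, so vehicle replicate 2 lay below PLX3397 replicate 1. Its log2 fold was -1.70 (SE 0.52, edgeR adjusted p = 0.791). H2-DMb1, one of the 2 DM beta chains, overlapped in the same pair of libraries, at 67.5, 16.1, 45.7 and 46.2 CPM against 17.7, 5.66, 2.48 and 7.36 CPM (log2 fold -2.38, SE 0.65, edgeR adjusted p = 0.666). H2-DMb2, the other DM beta chain, did not overlap, at 12.6, 4.28, 11.7 and 11.5 CPM against 3.20, 0.859, 0.285 and 0.987 CPM (log2 fold -2.89, SE 0.73, edgeR adjusted p = 0.567). H2-DMb1 and H2-DMb2 are 1517 bases apart, their first-listed transcripts are 94.4% identical over 1255 aligned bases, and 22.7% and 24.8% of their 50-base stretches occur in other genes. Reads from such stretches cannot be assigned with certainty, so the split between them is uncertain.

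H2-Oa and H2-Ob form DO, an inhibitor of DM found mainly in B cells and some dendritic cells, and were scarce. H2-Oa had 18 to 91 counts per vehicle library and 4 to 39 per PLX3397 library, and its groups overlapped (log2 fold -1.65, SE 0.79, edgeR adjusted p = 0.9998). H2-Ob had 24 to 57 counts against 4 to 22, or 0.766 to 1.72 CPM against 0.114 to 0.671 CPM, without overlap (log2 fold -1.73, SE 0.52, edgeR adjusted p = 0.791). Ciita, the coactivator, stood at 17.4, 3.16, 10.9 and 9.49 CPM under vehicle and at 4.33, 1.13, 0.343 and 0.987 CPM under PLX3397. Again vehicle replicate 2 lay below PLX3397 replicate 1 (log2 fold -2.57, SE 0.82, edgeR adjusted p = 0.816).

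The call rested on the test. DESeq2 called 169 genes (0.904% of those tested lower) and 6 of the 10 class II genes, all lower, with adjusted p from 0.000221 for H2-Eb1 to 0.0160 for H2-DMb1. Limma voom with sample quality weights called 377 genes (2.04% of those tested lower) and 8 of the 10, all but H2-Oa and H2-Ob. Without the low-count filter edgeR called 1 gene, lower (0.00334%), and none of the 10. Every one of the 10 fold changes stayed negative in all 14 alternative fits. Without PLX3397 replicate 1, the highest of its group, 8 of the folds were lower by a factor of over 1.5, with H2-Ab1 at -3.28, H2-Eb1 at -3.69, Cd74 at -3.25, H2-DMa at -2.31, H2-DMb1 at -3.09, H2-DMb2 at -3.81, H2-Oa at -2.57 and Ciita at -3.64, and edgeR still called none of the 10.

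**Figure D1:**
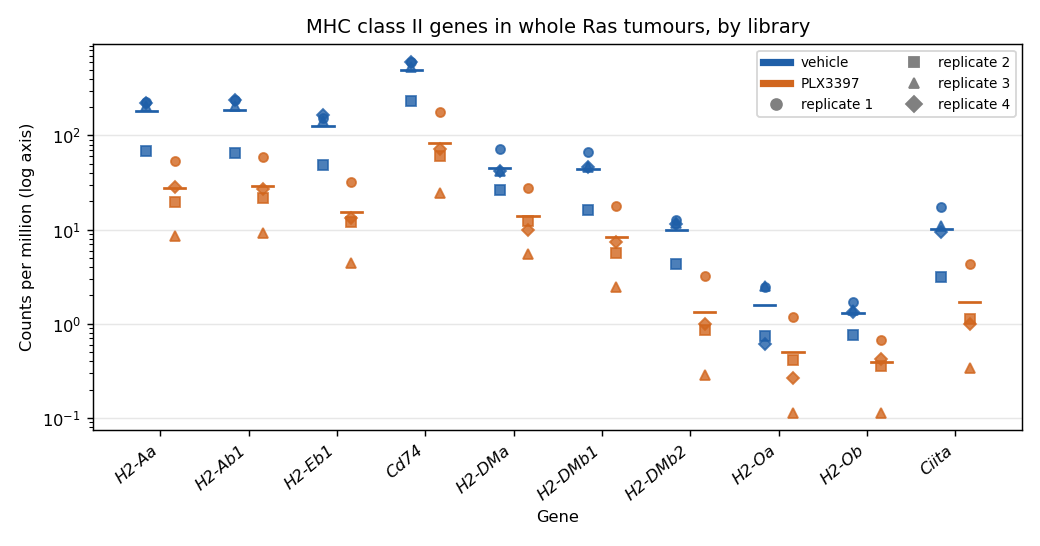
CPM (log axis) of the 10 class II genes in each whole Ras tumour library, vehicle in blue and PLX3397 in orange, with replicates as symbols and group means as bars. Vehicle replicate 2 is the lowest vehicle library for 9 of the genes, all but H2-Oa, and PLX3397 replicate 1 is the highest PLX3397 library for all 10.

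Per kilobase of merged exons, mean vehicle levels ran in the order Cd74 (295 CPM per kb), H2-Ab1 (73.1), H2-Eb1 (65.5), H2-Aa (47.5), H2-DMb1 (26.1), H2-DMa (13.2), H2-DMb2 (5.73), H2-Oa (1.12), Ciita (1.07) and H2-Ob (0.242). Cd74, at 139 to 363 CPM per kb over the vehicle libraries, lay above the range of every other gene. From H2-Ab1 down to H2-DMa each gene's range over the libraries overlapped that of the next, although within each of the 4 vehicle libraries these 5 genes stood in this order. H2-Oa and Ciita also overlapped (0.331 to 1.82 CPM per kb), and their order differed between libraries. The ratio of Cd74 to H2-Aa CPM was 2.57 to 3.37 in the vehicle libraries and 2.51 to 3.29 in the PLX3397 libraries. H2-DMb2 per H2-DMb1 was 0.187 to 0.266 under vehicle and 0.115 to 0.181 under PLX3397, without overlap. Over the 8 libraries the correlation of each gene with the mean log2 CPM of the classical chains and Cd74 ran from 0.850 (H2-Oa) to 0.999 (H2-Eb1), a description over libraries that share the treatment difference.

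Pan-myeloid genes were lower under PLX3397 too, but lists for single myeloid cell types were mixed. The median log2 fold was -0.90 over 11 microglia markers, 10 of them negative. It was -0.37 over 13 monocyte-derived macrophage markers, 9 of them negative. Over the 6 neutrophil markers tested it was 0.38, with 2 negative. EdgeR called 0 genes of these lists. All 8 genes of a pan-myeloid list (Ptprc, Tyrobp, Aif1, Itgam, Csf1r, Fcer1g, Laptm5, Cd68) had negative folds, with a median of -1.23 on the log2 scale, 5 without overlap and 0 called by edgeR; their summed level was 220 to 709 CPM under PLX3397 and 880 to 1398 CPM under vehicle. The sum of H2-Aa, H2-Ab1, H2-Eb1 and Cd74 amounted to 87.9%, 41.1%, 98.1% and 139.6% of that pan-myeloid sum in vehicle replicates 1 to 4 and to 45.1%, 18.1%, 21.3% and 43.1% under PLX3397. Only vehicle replicate 2 fell within the PLX3397 range. The summed level of 7 B cell markers overlapped, at 2.67 to 6.25 CPM under PLX3397 and 2.11 to 7.65 CPM under vehicle, although Bank1 among them did not overlap (log2 fold -2.43, edgeR adjusted p = 0.659). Of the dendritic cell markers, Fscn1 (353 against 399 CPM on average) and Cacnb3 (103 against 100.3 CPM) made up most of the summed level and were also read in the cultured tumour lines, at 276 to 661 CPM for Fscn1; each of the other markers tested averaged under 5 CPM in both groups, and none was called by edgeR. The part of the cell makeup in the class II result was not tested.

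The transcripts most like the class II genes over the 8 libraries, by Pearson correlation with the mean log2 CPM of H2-Aa, H2-Ab1, H2-Eb1 and Cd74 among 11989 genes, were Mir5107 (r = 0.998), which lies inside Cd74 and can share its reads, Plbd1 (0.996), Lcp1 (0.990), Dok3 (0.987), Fam46a (0.985) and LOC100038947 (0.981). Lcp1 encodes L-plastin, an actin-bundling protein of leukocytes, and Dok3 an adaptor of immune cells. Their log2 folds ranged from -2.65 (Mir5107) to -0.68 (Fam46a), and none was called by edgeR.

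EdgeR called none of the other genes of the pathway. Of 11 genes of transcriptional control, 8 had negative folds with a median of -0.09; Spi1, the myeloid factor PU.1, had a log2 fold of -1.51 (SE 0.52, edgeR adjusted p = 0.964), while Irf8 stood at -0.63, Nfya at -0.28 and the RFX subunit gene Rfx5 at 0.24. The median over 9 genes of the interferon gamma axis was -0.34, with Ifngr1 at -0.58, Ifngr2 at -0.48, Socs1 at -0.31 and the chemokine gene Cxcl9 at -1.91 (SE 0.98, edgeR adjusted p = 0.9998). Among 9 genes of antigen processing the median was -0.14; Ifi30, a lysosomal thiol reductase, had no overlap between groups (log2 fold -1.67, SE 0.39, edgeR adjusted p = 0.485), and Ctss, the protease that trims the invariant chain, stood at -1.07, Lgmn at -0.68 and Lamp1 at -0.10. All 7 genes of costimulation and T cell receptors were negative with a median of -1.07, among them Cd4, the coreceptor for class II (log2 fold -1.94, SE 0.32, edgeR adjusted p = 0.319), Cd86 (-1.42), Icosl (-1.05) and Cd80 (-0.66).

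CD11b-positive cells of PDGFB tumours allowed the same comparison within selected myeloid cells after a short treatment. H2-DMb2, H2-DMb1 and H2-DMa, the 3 DM chain genes, fell under PLX3397, 3 of the 10 class II genes against 1.78% of 15052 genes called lower by edgeR (4.57% were called higher and 6.35% in either direction). The median log2 fold of the 10 was -1.29, against 0.0066 over all genes. In 9 of the 10 both PLX3397 libraries lay below the vehicle library, but with 1 library against 2 this held for 42.8% of all genes. The fit had 1 residual degree of freedom, and the spread of the single vehicle library was taken from the PLX3397 pair.

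H2-DMb2 stood at 103 CPM under vehicle and at 29.4 and 33.9 CPM in PLX3397 replicates 1 and 2 (log2 fold -1.70, SE 0.16, edgeR adjusted p = 0.0305). H2-DMb1 stood at 336 CPM against 101 and 112 CPM (log2 fold -1.65, SE 0.16, edgeR adjusted p = 0.0305), and H2-DMa at 289 CPM against 111 and 128 CPM (log2 fold -1.26, SE 0.16, edgeR adjusted p = 0.0348). The PLX3397 libraries were close to each other for these genes. They were further apart for the classical chains, where replicate 1 was the lower: H2-Aa stood at 1282 CPM against 433 and 657 CPM, H2-Ab1 at 1549 CPM against 469 and 754 CPM, and H2-Eb1 at 1189 CPM against 341 and 543 CPM. The log2 folds of these chains were -1.22, -1.33 and -1.42, with edgeR adjusted p of 0.0835, 0.0854 and 0.0713. Cd74 stood at 3365 CPM against 1292 and 1793 CPM (log2 fold -1.11, SE 0.30, edgeR adjusted p = 0.0927). Ciita had the lowest fold of the 10, at 105 CPM against 15.8 and 34.9 CPM (log2 fold -2.03, SE 0.45, edgeR adjusted p = 0.0701).

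For the DO genes the gap was smaller. H2-Ob stood at 10.8 CPM against 7.89 and 6.18 CPM (log2 fold -0.61, edgeR adjusted p = 0.232). H2-Oa stood at 6.37 CPM against 8.19 and 5.47 CPM (log2 fold 0.11, SE 0.37, edgeR adjusted p = 0.872), the only one of the 10 whose vehicle value lay between those of PLX3397. Whether the fold of the DO genes differs from that of the others was not tested.

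DESeq2 called 8 of the 10 genes lower (3.73% of all genes tested), all but H2-Oa and H2-Ob, and with no low-count filter edgeR called 5 (3.33%), adding H2-Aa and H2-Eb1 to the DM genes. Leaving out a PLX3397 library leaves no residual degree of freedom, so it gives folds without a test.

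**Figure D2:**
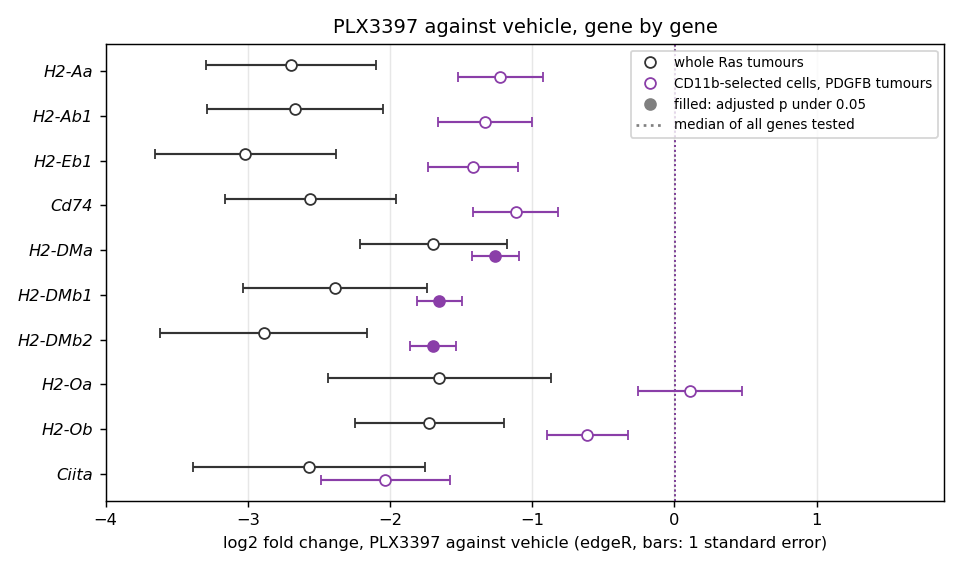
Log2 fold changes of the 10 class II genes, PLX3397 against vehicle, in whole Ras tumours (black) and in CD11b-positive cells of PDGFB tumours (purple), with bars of 1 SE and filled points for an adjusted p under 0.05. Only H2-DMa, H2-DMb1 and H2-DMb2 of the CD11b-positive cells are filled, and H2-Oa of these cells is the only point above 0.

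As a measure of the myeloid content, the pan-myeloid list had a median log2 fold of -0.25 with 0 of 8 called by edgeR and a summed level of 6874 to 8145 CPM under PLX3397 against 8789 CPM under vehicle. The sum of H2-Aa, H2-Ab1, H2-Eb1 and Cd74 was 84.0% of the pan-myeloid sum under vehicle and 31.1% and 54.5% under PLX3397. Markers of other cells moved with the treatment too. Of 8 tumour or glial markers 6 rose, with a summed level of 401 to 472 CPM against 61.4 CPM. Of 6 pericyte or fibroblast markers 2 rose (555 to 913 against 139 CPM), and of 5 oligodendrocyte markers 2 rose (266 to 370 against 111 CPM). All 8 neutrophil markers were higher without overlap, against 41% of all genes, and 0 were called by edgeR (502 to 760 against 308 CPM). Of 11 microglia markers 1 fell (2654 to 3583 against 3634 CPM). Of 4 B cell markers tested, Bank1, a B cell scaffold gene, fell (log2 fold -3.04, edgeR adjusted p = 0.0345), and the list summed to 8.66 to 9.55 CPM against 31.9 CPM, with 1 of its 7 genes at 0 throughout. Of the dendritic cell list, Ccl22 rose (34.4 CPM under vehicle, 107 and 136 CPM under PLX3397, log2 fold 1.83, edgeR adjusted p = 0.0345). The other 9 genes also had positive folds but were not called. The largest part of the list's summed level was Fscn1, which the tumour lines also express. The part of these cells in the class II result was not tested.

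Of the pathway lists, only Cxcl9, an interferon gamma target, was called by edgeR: it fell from 46.9 CPM to 11.4 to 14.5 CPM (log2 fold -1.84, SE 0.21, edgeR adjusted p = 0.0345). The other 8 genes of that axis were not called, with Cxcl10 at -0.68, Gbp2 at -0.48 and Ifngr1 at -0.21, and its median was -0.21. The median over 11 genes of transcriptional control was -0.26, led by Spi1 at -0.50 (SE 0.20, edgeR adjusted p = 0.179), Creb1 at -0.31, Irf1 at -0.29 and Nfya at -0.28. Antigen processing had a median of 0.07, with Ifi30 at -0.67 and Marchf1, a ligase that removes class II from the surface, at -0.43, but Cd63 at 0.82 and Ctsl at 0.45. Costimulation and T cell receptors had a median of -0.21, with Lag3 at 1.48, Cd4 at 0.65, Cd40 at -0.43 and Icosl at -0.29.

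**Figure D3:**
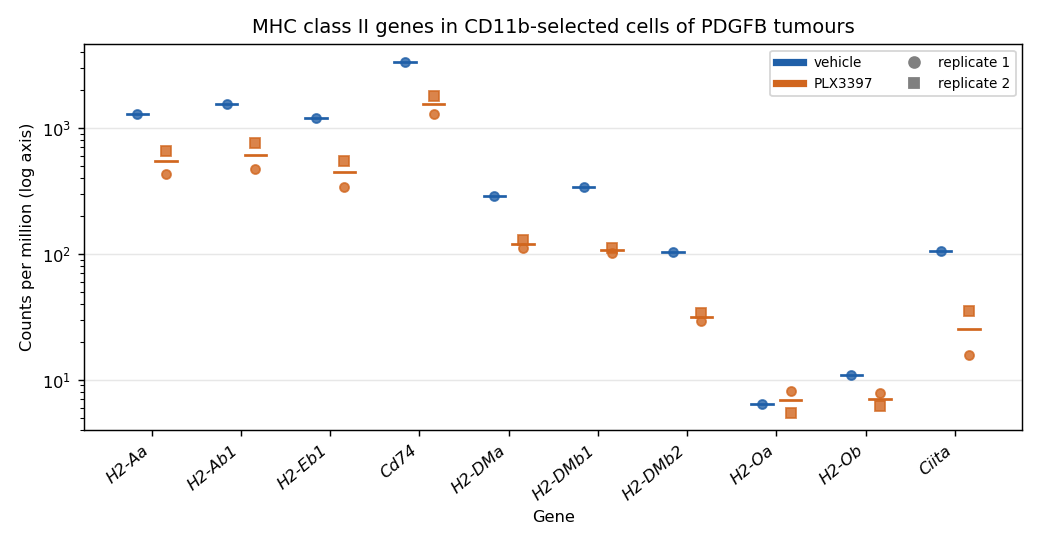
CPM (log axis) of the 10 class II genes in the 3 libraries of CD11b-positive cells from PDGFB tumours, the single vehicle library in blue and the PLX3397 libraries in orange, with bars at group means. Cd74 stands at 3365 CPM under vehicle, and only for H2-Oa does the vehicle value lie between the PLX3397 values.

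Cultured tumour lines had most class II genes near 0. Cd74 had 0 and 0 counts in the Ras lines and 1, 4 and 3 in the PDGF lines, H2-Aa at most 4 counts in any line, and H2-Oa and H2-Ob at most 2 counts. Only H2-DMa, H2-Ab1, H2-DMb1 and Ciita passed the filter on low counts. EdgeR called none of these 4 and 0% of 17475 genes between the line types; 2 of the 4 had an unadjusted p under 0.05 and were lower in the Ras lines (7.46% of all genes were lower at this p and 8.8% higher).

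H2-DMa had 239 and 307 counts in the Ras lines and 721, 854 and 693 in the PDGF lines. In CPM these were 7.21 and 9.45 against 21.0, 25.2 and 20.7. The H2-DMa levels did not overlap between line types, as was true of 20.4% of all genes in this direction. The log2 fold, Ras against PDGF, was -1.43 (SE 0.29, edgeR adjusted p = 0.213). Part of H2-DMa lies opposite Brd2, and the part of Brd2 reads in these counts was not tested. H2-Ab1 had 5 and 2 counts in the Ras lines and 167, 139 and 156 in the PDGF lines, or 0.151 and 0.0616 CPM against 4.86, 4.11 and 4.67 CPM (log2 fold -5.37, SE 0.67, edgeR adjusted p = 0.204). Its partner H2-Aa had 4, 0 and 2 counts in the same PDGF lines, so the beta chain was read there almost without the alpha chain. Pan-myeloid genes summed to 5.73 to 82.8 CPM over the PDGF lines and to 5.54 to 10.3 CPM over the Ras lines. The part of any myeloid cells in the H2-Ab1 level was not tested. Ciita had 35 and 13 counts in the Ras lines and 8, 24 and 11 in the PDGF lines, and these overlapped.

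DESeq2 called both H2-Ab1 and H2-DMa lower in the Ras lines (6.12% of all genes lower), and so did edgeR without Ras line replicate 2 (5.68%), with adjusted p of 0.0246 and 0.0461; the remaining single Ras line there takes its spread from the PDGF lines. With no low-count filter edgeR called 1 gene lower (0.00366%) and none of the 10. Of the pathway lists in the lines, 0 genes were called by edgeR, with medians of 0.22 over 10 genes of transcriptional control, 1.58 over 7 of the interferon gamma axis, 0.45 over 8 of processing and -0.44 over 5 of costimulation. The smallest p in each list belonged to Irf8 (log2 fold -2.91, edgeR adjusted p = 0.228), Cxcl10 (4.86, 0.265), Cd63 (0.77, 0.245) and Cd83 (-3.53, 0.364).

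Single cells of untreated Ras tumours showed which cells carried the transcripts. There is 1 library per method, so the values have no replicate check and intervals cover counting error only. The 10x library had 3320 barcodes kept and a median of 8351 unique molecular identifiers (UMIs) per cell, and the Drop-seq library 4901 barcodes and 1396 UMIs. Clusters were made without the 10 class II genes, so their levels played no part in the grouping; doublets were not removed.

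Most transcripts of H2-Aa, H2-Ab1, H2-Eb1 and Cd74 lay in myeloid clusters, taken as those with at least 7 of the 8 pan-myeloid genes at a fold of 2 or more, a rule set after the clusters had been seen. In the 10x library 2 such clusters held 535 cells, 16.1% of the barcodes, and 90.0% (Clopper-Pearson 95% interval 89.7 to 90.2) of the UMIs of H2-Aa, H2-Ab1, H2-Eb1 and Cd74. The Drop-seq library had 1 such cluster of 178 cells, 3.63% of barcodes, with 85.0% (83.9 to 86.1) of these UMIs. The share was lower for some of the other genes: the 2 10x clusters, 4 and 5, held 60.8% and 9.86% of H2-DMa UMIs, 67.0% and 6.09% of H2-Oa UMIs, and 43.4% and 2.63% of H2-Ob UMIs.

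Cluster 4 of the 10x library (270 cells, led by Rgs1, Arg1 and Lyz2) was monocyte-derived macrophage-like by the naming rule. It had 12 of 13 markers of that list at a fold of 2 or more, though 9 of 11 microglia markers also passed this fold. Most of its cells lost the name at a finer resolution or with the class II genes kept among the variable genes. When barcodes needed at least 1000 UMIs, 244 cells took the name. Cluster 4 held 83.3% of all Cd74 UMIs. Levels are given as UPM, the UMIs of a gene scaled to a common total of 1e6 UMIs per cluster. Cd74 stood at 3333 UPM there, H2-Ab1 at 1149, H2-Aa at 828, H2-Eb1 at 798, H2-DMa at 316, H2-DMb1 at 159, H2-DMb2 at 25.6, Ciita at 14.5, H2-Oa at 14.3 and H2-Ob at 6.13 UPM. A Cd74 UMI was seen in 79.6% of its cells (median 14747 UMIs per cell), against 8.88% in the erythroid-like cluster (median 2331), which should lack the gene; after thinning to 1000 UMIs per cell these shares were 48.9% and 3.47%, with 2 and 25 cells left out. The transcripts were unevenly spread. At a finer resolution cluster 4 split mainly into 115 cells led by Chil3, Plac8, Ccl24 and Ccr2, with Cd74 at 7583 UPM and 47.5% of all Cd74 UMIs, and 154 cells led by C1qa, C1qc and Rgs1, with Cd74 at 1914 UPM and 35.9% of these UMIs. Only the 115 cells were still monocyte-derived macrophage-like; the 154 cells had 10 of 11 microglia and 7 of 13 monocyte-derived markers and were unnamed. With the class II genes kept among the variable genes, 88 cells took that name and 448 were microglia-like. The share of the monocyte-derived class therefore depends on the clustering.

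Cluster 5 (265 cells, led by Cst7, Fcrls and C1qb) was microglia-like, with 10 of 11 microglia markers. Cd74 stood at 1268 UPM, H2-Ab1 at 327 UPM, H2-Eb1 at 264, H2-Aa at 220.2, H2-DMa at 201, H2-DMb1 at 93.8, H2-DMb2 at 13.8, H2-Oa at 5.09, H2-Ob at 1.45 and Ciita at 0.727 UPM, the last from a single UMI. The UMIs behind these pooled levels came from few cells. The median cell had 0 UMIs of H2-Aa, H2-Ab1, H2-Eb1 and Cd74. The top 10% of cells held 85.98% of the cluster's UMIs of these genes, against 74.05% in cluster 4. Cells were ranked by UMIs not scaled for depth, and the median depth was 2583 UMIs against 14746.5 in cluster 4. The 2 shares are therefore not directly comparable. A Cd74 UMI was seen in 37.4% of the cells of cluster 5, and after thinning in 63 of 242 cells, with 23 left out.

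Cluster 12 (26 cells, led by Igkc, Ighm and Cd79a) was B cell-like and had the highest level of 9 of the 10 genes, all but H2-DMb1. Cd74 stood at 13087 UPM (95% interval 12409 to 13792), H2-Aa at 3377, H2-Eb1 at 3255 and H2-Ab1 at 2918 UPM, and all 26 cells held UMIs of all of these genes. With 0.783% of the barcodes it held 47.4% of all H2-Ob UMIs (36 of 76) and 19.1% of all H2-Oa UMIs (22 of 115). H2-Ob stood at 338 UPM there (237 to 468) against 6.13 UPM in cluster 4. The DM beta chains were in reverse order: H2-DMb2 at 347 UPM (37 UMIs) and H2-DMb1 at 84.4 UPM (9 UMIs), a ratio of 4.11, against 0.161 in cluster 4 and 0.147 in cluster 5. This reversal is read from 46 UMIs of genes with shared stretches.

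**Figure D4:**
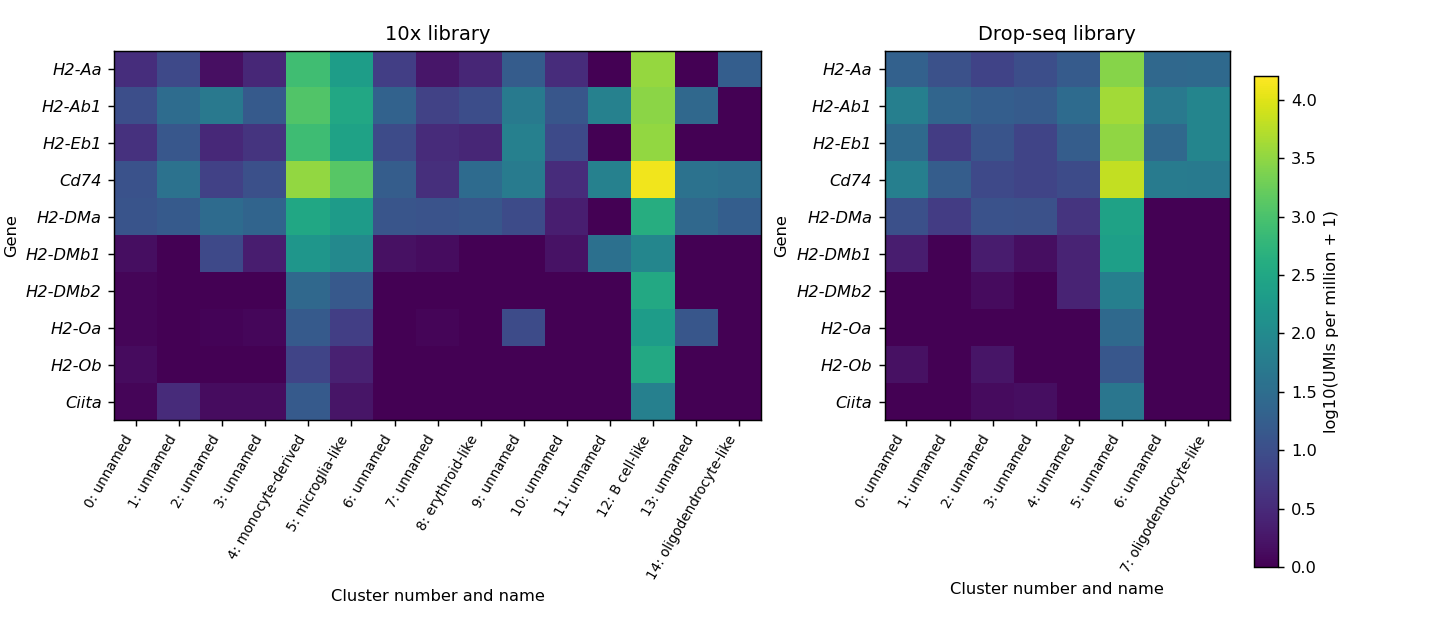
Levels of the 10 class II genes, as log10 of the UPM value with 1 added, over the 15 clusters of the 10x library and the 8 clusters of the Drop-seq library, with brighter colours for higher levels. Clusters 4, 5 and 12 of the 10x library and cluster 5 of the Drop-seq library stand out from the others for most genes. Within the 10x library all genes but H2-DMb1 are brightest in cluster 12.

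Drop-seq cluster 5, led by Lyz2, Ctss and C1qa and left unnamed because none of its microglia markers (10 of 11 at a fold of 2 or more) was among its 10 leading genes, held Cd74 at 6476 UPM, H2-Ab1 at 4094, H2-Eb1 at 3225 and H2-Aa at 2693 UPM. It carried 88.6% of Cd74 UMIs but 43.2% of H2-DMa UMIs, of which the rest was spread over other clusters. No cluster of that library was named B cell-like; cluster 1 was led by Igkc and Ighm, but had 1 B cell marker at a fold of 2 or more where 3 were needed. The ratio of Cd74 to H2-Aa UMIs was 2.40 there, and 4.03, 5.76 and 3.88 in 10x clusters 4, 5 and 12.

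H2-Ab1 was also read outside the immune clusters. Cluster 2 of the 10x library (462 cells, led by Scg2, Lcn2 and Nefl, and unnamed) held H2-Ab1 at 48.1 UPM (402 UMIs), H2-DMa at 28.5 UPM (238 UMIs) and H2-DMb1 at 7.53 UPM (63 UMIs), but Cd74 at 5.38 UPM (45 UMIs), H2-Aa at 0.478 UPM (4 UMIs), H2-DMb2 and H2-Ob at 0 of 8364460 UMIs, and Ciita at 3 UMIs. H2-Ab1 per Cd74 UMI was 8.93 there, against 0.345 in cluster 4, 0.258 in cluster 5, 0.223 in cluster 12 and 0.313 in the erythroid-like cluster. An H2-Ab1 UMI was seen in 140 of its 462 cells (30.3%, median 5573 UMIs per cell), and in 2.96% of erythroid-like cells (median 2331); after thinning to 1000 UMIs the shares were 7.13% and 2.08%, with 41 and 25 cells left out. Of the 140 cells, 20 also had a Cd74 UMI and 1 an H2-Aa UMI. For H2-DMa thinning left a UMI in 8 of 421 cluster 2 cells and in 3 of 144 erythroid-like cells (2.08%), so it was not above that background.

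In the Drop-seq library, H2-Ab1 per Cd74 UMI was 2.29 in cluster 2, which was also led by Scg2 and Areg, but 0.982 to 3.40 over clusters 0, 1, 3 and 4, from at most 113 Cd74 UMIs each, so no cluster stood apart. The bulk lines and 10x cluster 2 thus both hold samples in which H2-Ab1 is read with little H2-Aa or Cd74, the lines for PDGF and the cluster for a Ras tumour; they were made by different methods and were not compared by a test.

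**Figure D5:**
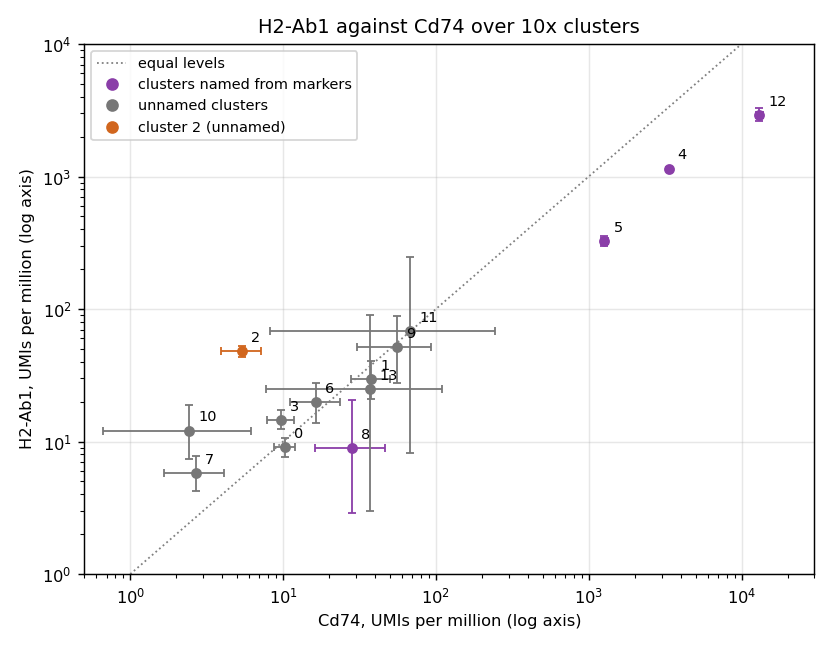
H2-Ab1 against Cd74, both as UPM on log axes, for the 14 clusters of the 10x library with an H2-Ab1 UMI; numbers are cluster numbers, bars are exact Poisson 95% intervals and the dotted line marks equal levels. Clusters 4, 5 and 12 lie below the line, and cluster 2 lies above it at 48.1 UPM of H2-Ab1 and 5.38 UPM of Cd74. Clusters 3, 6, 7 and 10 also lie above the line.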

How the data were processed

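The authors deposited 3 bulk tables as raw counts per gene symbol and 2 single-cell tables as UMI counts per gene and barcode, with no normalization, per the file headers and values. Per the submitters' processing notes, the tools included STAR 2.6.1e, featureCounts 1.6.2, cutadapt 1.9.1, Trim Galore 0.4.2, FastQC 0.11.7 and Cell Ranger, and the build was GRCm38; the strand setting is not given in the sources used here. Even numbers make up 66.8%, 65.8% and 40.8% of the counts from 1 to 10 in the Ras tumour, line and CD11b tables. Entries without a usable gene name (27, 27 and 1; at most 0.360% of a library) and 5 columns that match no sample were left out.

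Each bulk comparison was fitted alone with edgeR 4.0.16 (quasi-likelihood, TMM, filterByExpr, Benjamini-Hochberg over all genes); DESeq2 1.42.0 and limma 3.58.1 were alternatives. The fits were tested on simulated data. CPM are TMM-scaled. Depth was 26.8 to 35.9 M counts per bulk library (M: units of 1e6), 59.3 M UMIs in 4384 10x barcodes and 9.67 M in 5000 Drop-seq barcodes; no barcode sequence recurred within a library. A 10x barcode needed 500 UMIs and 300 genes, a Drop-seq barcode 300 UMIs and 200 genes, and neither could exceed 20% mitochondrial UMIs; those kept were clustered with scanpy (Leiden 0.5, 30 principal components, 2000 variable genes without the 10 members, 15 neighbours). Each cluster was named for the class with most markers at a 2-fold excess, with at least 3 such markers and at least 1 among its 10 leading genes, no other class having more there. Intervals are exact (95%) and cover counting error only. Replicate numbers did not pair the libraries.

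The members, the marker and pathway lists and the tests were chosen with earlier results of these data known. Named beside the 10 members were, of each pathway list, the called genes and up to 4 with the smallest p, and the 6 genes most correlated with the mean of H2-Aa, H2-Ab1, H2-Eb1 and Cd74 (mean log2 CPM of at least 3). Gene positions and exon lengths are those of GENCODE for GRCm38, and promoter positions are those of RefSeq.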

Additional observations from a re-analysis of the deposited data

Results flagged for a closer look

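Among the 20 sets of 4 values tested for a sample far from the others (10 genes in each group of Ras tumours), 2 stood out, both in vehicle replicate 2. H2-Aa was at 69.1 CPM there, with the next vehicle library at 206 CPM, and H2-DMb2 at 4.28 CPM, with the next at 11.5 CPM. The gap as a fraction of the group's range was 0.870 and 0.862, in both cases above Dixon's 95% critical value for 4 samples. Chance flags about 1 in 20 such sets, and the sets are not independent, since the genes vary together. Without vehicle replicate 2 the log2 fold of H2-Aa was -2.97 and that of H2-DMb2 -3.14, and edgeR called 0 of the 10 genes.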

How the results depend on the processing

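The number of calls depended on the test; the cause was not tested. In the Ras tumours, edgeR called 0 genes, 648 having an unadjusted p under 0.05; DESeq2 called 169 genes and 6 of the 10 class II genes, voom with quality weights 377 and 8, and edgeR without the low-count filter 1 and 0. Counts were 0 under RLE scaling, the replicate block, Ddx3y as a term and each library left out. The Ddx3y term split both groups: this gene stood at 19.7 to 31.9 CPM in replicates 1 and 2 and at 0 to 0.136 CPM in replicates 3 and 4. In CD11b-positive cells, 956 genes and 3 class II genes became 1959 and 8 by DESeq2 and 1907 and 5 without the filter. No fit is possible without the only vehicle library; without PLX3397 replicate 1 the fold of H2-Oa turned to -0.20 (range -0.20 to 0.38), and over each PLX3397 library left out that of Ciita was -2.71 to -1.57. Between the lines, edgeR's 0 genes (2842 at an unadjusted p under 0.05) became 2110 and 2 class II genes by DESeq2 and 1 and 0 without the filter, and 0 to 2111 genes and 0 to 2 class II genes when a library was left out; without Ras line replicate 1 the fold of Ciita turned to -0.094 (range -0.094 to 1.37). The replicate block gave 0 calls in the Ras tumours and lines. It paired nothing in the design. Pairs of a vehicle and a PLX3397 library were correlated after each gene's group mean was subtracted. These deviations correlated at -0.42 to 0.449 for same-numbered Ras tumour libraries and at -0.73 to 0.59 for differently numbered ones. The myeloid share of class II UMIs was 90.0 to 90.1% (10x) and 84.9 to 85.0% (Drop-seq). Depth limits H2-Oa and H2-Ob, with as few as 4 counts per library.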

Other observations

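Within 10x cluster 4, 20 of 270 cells had UMIs of at least 2 of 8 dendritic cell markers (Flt3, Zbtb46, Clec9a, Xcr1, Cd209a, Ccr7, Ccl22 and Ccl17; Fscn1 and Cacnb3, also read in tumour clusters, were left out after seeing the data). These 20 cells held 41.5% of the cluster's UMIs of H2-Aa, H2-Ab1, H2-Eb1 and Cd74. Cd74 stood at 22678 UPM in them and at 2289 UPM in the other 250 cells, H2-Aa at 8110 against 435 UPM, H2-Oa at 203 against 4.11 UPM, H2-Ob at 87.1 against 1.76 UPM and Ciita at 159.7 against 6.66 UPM. Their median depth was 12064 UMIs, against 15395 for the other cells.

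Over the 15 clusters of the 10x library, the genes most like the mean of H2-Aa, H2-Ab1, H2-Eb1 and Cd74 on a log2 scale, of 11715 genes, were Cd180 (r = 0.978), Pkib (0.965), 5430427O19Rik (0.958), Cd86 (0.947), Gm6377 (0.947) and Susd3 (0.941). Cd180 is a Toll-like receptor homologue of B cells and macrophages, and Cd86 a costimulatory ligand of antigen-presenting cells. H2-Eb2, a further class II beta chain gene, had 8 of its 11 UMIs in the 26 B cell-like cells.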
